A study of Mus musculus with 13 samples.

Results

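The small proline-rich (Sprr) genes were followed in skin tumours of mice with and without a conditional knockout of G9a. Of 10 Sprr genes set out by name, 8 were read by a probe set whose only symbol was that gene (Sprr1a, Sprr1b, Sprr2d, Sprr2f, Sprr2h, Sprr2i, Sprr2k and Sprr3), each by 1 probe set, so 8 of the 45037 probe sets on the array that are no array controls were followed. Sprr2b and Sprr4 had no such probe set and have no value here. The genes were selected on their differences between cKO and WT tumours on these same arrays, so those differences are given as a description and no p-value is given for these 8 genes.

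Arrays of total RNA came from 7 tumours of G9a cKO mice and 6 tumours of G9a WT mice. Tumours of both groups were induced on the back skin with the carcinogen DMBA (0.25 mg/ml) and the tumour promoter TPA (0.02 mg/ml), each in 200 µl, from 8 weeks of age for 6 weeks, followed by TPA for up to 20 weeks, and the labels call the tissue squamous cell carcinoma. G9a, encoded by Ehmt2, is a histone methyltransferase of gene silencing that modifies histone H3. The sources used here do not name the promoter that drives the deletion in the cKO mice, nor do they say whether each tumour came from a mouse of its own. The p-values below therefore measure only the spread between these samples. Some arrays were also not independent of each other, as described below, so p-values from fits without a term for this may be too small. What the p-values with that term measure is also given below.

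Sprr proteins are small, proline-rich precursors of the cornified envelope, the protein shell under the membrane of the outermost keratinocytes. Transglutaminases crosslink them through their glutamine- and lysine-rich ends to one another and to loricrin and involucrin, which gives the envelope its strength and flexibility. The genes lie side by side in the epidermal differentiation complex, are low in resting interfollicular epidermis and rise in keratinocytes after wounding, ultraviolet light, phorbol ester or inflammation. AP-1, Ets and octamer-binding factors have been described at their promoters.

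Several Sprr2 genes have their annotated starts behind a common arrangement of short sequence motifs, and 4 windows are printed to show it: those of Sprr2d, Sprr2f and Sprr2h, which had the largest differences between the groups, and that of Sprr2k, which had a small one. Each is the 250 bases before the annotated start (RefSeq, GRCm38.p6), read 5′ to 3′ on the gene's strand, with the matches in capitals: TGAGTCA or its reverse complement TGACTCA, an AP-1 sequence, then ATTTGCAT, the octamer, then TATAAA.
Sprr2d (chr3:92338890-92339139, plus strand): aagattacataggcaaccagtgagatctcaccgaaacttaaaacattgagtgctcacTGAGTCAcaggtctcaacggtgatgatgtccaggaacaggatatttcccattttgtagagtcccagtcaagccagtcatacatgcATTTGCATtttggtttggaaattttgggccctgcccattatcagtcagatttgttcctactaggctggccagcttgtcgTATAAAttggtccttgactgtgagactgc
Sprr2f (chr3:92364937-92365186, plus strand): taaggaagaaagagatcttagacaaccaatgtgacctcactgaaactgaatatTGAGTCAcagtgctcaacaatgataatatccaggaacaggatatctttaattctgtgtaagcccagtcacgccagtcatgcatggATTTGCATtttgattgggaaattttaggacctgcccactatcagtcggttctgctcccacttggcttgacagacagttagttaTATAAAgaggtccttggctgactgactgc
Sprr2h (chr3:92385435-92385684, plus strand): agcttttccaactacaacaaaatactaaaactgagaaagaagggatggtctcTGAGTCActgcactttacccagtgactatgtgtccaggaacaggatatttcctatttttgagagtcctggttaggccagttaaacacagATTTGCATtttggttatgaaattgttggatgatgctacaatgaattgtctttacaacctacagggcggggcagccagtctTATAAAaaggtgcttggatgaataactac
Sprr2k (chr3:92432332-92432581, plus strand): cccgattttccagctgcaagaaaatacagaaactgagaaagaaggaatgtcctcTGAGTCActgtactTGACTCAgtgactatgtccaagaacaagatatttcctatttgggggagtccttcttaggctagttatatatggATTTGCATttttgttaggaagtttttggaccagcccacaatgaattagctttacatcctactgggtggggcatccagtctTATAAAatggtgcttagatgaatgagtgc
TGAGTCA and ATTTGCAT were searched on both strands and TATAAA on the gene's strand only, and no match overlapped another. In the Sprr2d window the first base of the AP-1 match lay 193 bases before the start, that of the octamer 108 bases and that of TATAAA 29 bases. The Sprr2f window held them at 197, 112 and 29 bases and the Sprr2h window at 198, 109 and 29 bases, and Sprr2k had a further AP-1 match, as TGACTCA, at 182 bases. All 6 Sprr2 genes on the list (Sprr2b, Sprr2d, Sprr2f, Sprr2h, Sprr2i and Sprr2k) held the 3 motifs in this order, and so did Sprr2e. Of the 10 genes on the list, 7 had the AP-1 sequence, 6 the octamer and 9 TATAAA, whereas 4.46%, 1.6% and 7.59% of all 32851 windows of the same length held them. Sprr1a had the AP-1 sequence at 146 and 116 bases and no octamer, Sprr1b and Sprr3 had TATAAA alone, and the Sprr4 window held none of the 3. In global alignments of whole windows, motifs included, 225 of 250 bases matched between Sprr2d and Sprr2e, 187 between Sprr2d and Sprr2f and 169 between Sprr2d and Sprr2h. The Sprr2a windows matched that of Sprr2d in 143 to 145 bases, against 137 for Sprr1b and 149 for Sprr4. Annotated spans differ, with Sprr2a1 running from 92215835 to 92222491, Sprr2d from 92339140 to 92340873 and Sprr4 from 92500263 to 92500493. Whether these annotated starts mark comparable places was not tested. The Sprr2a and Sprr4 windows may therefore not correspond in position to the others. Genes with this shared arrangement differed widely in how far the 2 groups of tumours lay apart, as the values below show. A match is a stretch of letters and not a measured binding site.

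**Figure D1:**
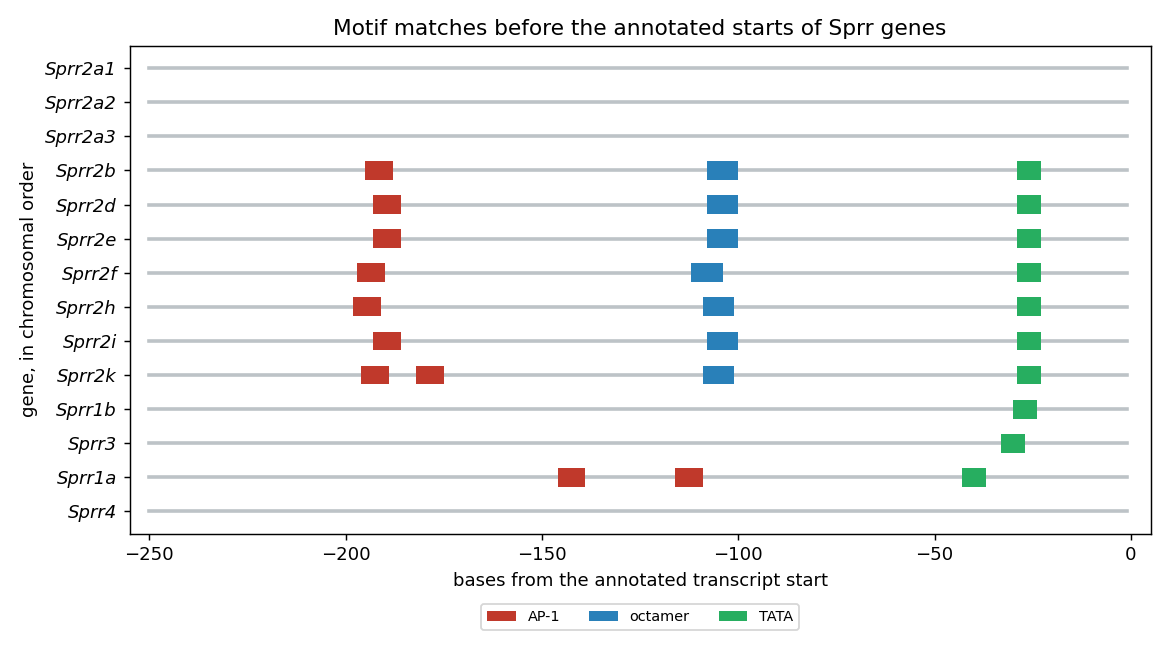
Matches to an AP-1 sequence (red), the octamer (blue) and TATAAA (green) in the 250 bases before the annotated starts of 14 Sprr genes, drawn by their distance in bases from the start, with genes in chromosomal order. The 7 genes from Sprr2b to Sprr2k share 1 arrangement, Sprr1a has 2 AP-1 matches closer to the start, and the windows of the 3 Sprr2a genes and of Sprr4 hold no match. Whether the annotated starts of the Sprr2a genes and Sprr4 are comparable with the others was not tested.

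Sprr2d was the gene with the largest difference. Expression values are log2 units per probe set after RMA (a normalization meant to set all arrays to a common scale), so a difference of 1 is a factor of 2 in signal. Sprr2d ranged between 5.23 and 8.78 in cKO tumours, with a median of 6.85, against 8.79 to 12.44 in WT tumours, with a median of 10.94. The groups did not overlap, but the highest cKO array and the lowest WT array lay next to each other. The cKO mean was 7.05 ± 1.59 (SD, n = 7) and the WT mean 10.69 ± 1.51 (SD, n = 6), a difference (cKO minus WT) of -3.65 (SE 0.81), or 12.5-fold. This was the lowest difference among all 45037 probe sets.

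Sprr2f and Sprr2h, neighbours of Sprr2d in the cluster that encode closely related envelope precursors, were also lower in most cKO tumours, with overlap between the groups. Sprr2f lay between 3.48 and 7.10 in cKO tumours, with a median of 5.17, against 5.55 to 9.25 in WT tumours, with a median of 7.43. Its difference was -2.14 (SE 0.83), from a mean of 5.22 ± 1.70 (SD, n = 7) in cKO and 7.36 ± 1.50 (SD, n = 6) in WT tumours, and 3 cKO arrays reached the WT range. On 3 of 7 cKO arrays and no WT array, the Sprr2f signal was under that of the middle nonspecific control (probe sets that estimate background). With every array set to at least the upper quartile of those controls, Sprr2f was at least 3.57-fold lower in cKO tumours. Sprr2h lay between 6.01 and 9.10 in cKO tumours, with a median of 7.52, against 8.72 to 10.72 in WT tumours, with a median of 9.73. Its means were 7.54 ± 1.21 (SD, n = 7) in cKO and 9.67 ± 0.83 (SD, n = 6) in WT tumours, a difference of -2.13 (SE 0.55) or 4.38-fold, and 2 cKO arrays (replicates 5 and 9) reached the WT range. The Sprr2h probe set is of the kind that the array maker marks as shared by several transcripts, so signal of near-identical Sprr2 genes may enter it.

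The other Sprr2 genes differed little. Sprr2i lay between 5.05 and 5.92 in cKO tumours, against 5.27 to 6.54 in WT tumours, with a difference of -0.38 (SE 0.21). Sprr2k lay between 7.49 and 7.98 in cKO tumours, against 7.64 to 8.35 in WT tumours, with a difference of -0.26 (SE 0.13). For both genes the difference was smaller than the SD of the WT arrays (0.55 and 0.30, n = 6). That of Sprr2k also lay within the range of the 23 nonspecific control probe sets, whose group differences ran from -0.31 to 0.08.

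The Sprr1 genes, whose products are envelope precursors used as markers of squamous differentiation, parted from each other. Sprr1b lay between 7.96 and 9.58 in cKO tumours, with a median of 8.55, against 9.50 to 10.18 in WT tumours, with a median of 9.91. The means were 8.67 ± 0.66 (SD, n = 7) in cKO and 9.90 ± 0.24 (SD, n = 6) in WT tumours, a difference of -1.23 (SE 0.27) or 2.35-fold, and a single cKO array (replicate 5) reached the WT range. Sprr1a lay between 9.13 and 10.99 in cKO tumours, with a median of 10.24, against 10.48 to 10.82 in WT tumours, with a median of 10.51. Its cKO arrays fell on both sides of the WT range: 2 (replicates 5 and 9) lay above every WT array and 5 below every one. The Sprr1a means were 10.22 ± 0.65 (SD, n = 7) and 10.56 ± 0.13 (SD, n = 6), a difference of -0.34 (SE 0.25), smaller than the SD among cKO tumours.

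Sprr3, which encodes an envelope precursor best known from oral and oesophageal epithelium, was near background in nearly every tumour. It lay between 4.33 and 4.60 in cKO tumours, against 3.59 to 6.17 in WT tumours, where the median was 4.32. The difference of -0.02 (SE 0.30) took the other sign, 0.31, without WT replicate 7, the array with 6.17. WT replicate 6, with 3.59, is the neighbour of that array in the deposit.

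All 8 probe sets had a mean below that of WT, and their median difference was -0.80, against 0.00037 over all probe sets, of which 49.9% had a difference below 0. At an adjusted p under 0.05 (limma, all probe sets), 4 of the 8 were lower in cKO (Sprr2d, Sprr2f, Sprr2h and Sprr1b), where 23.4% of all probe sets were, and 0 were higher, where 24.4% of all probe sets were (also 0 higher at an unadjusted p under 0.05). The count describes a comparison that was known when the family was chosen, and nothing is read from it. With a term for each neighbouring pair of arrays, described below, 2 of the 8 were called (Sprr2d and Sprr1b), where 13.1% of all probe sets were lower. Sprr2f was also not called when any 1 of 8 arrays was left out (cKO replicates 1, 2, 6 and 8 and WT replicates 2, 6, 8 and 9). With 1 array left out, Sprr2k was called without WT replicate 4 or 8. The groups did not overlap, with cKO lower, for 1 of the 8 probe sets, where 10.9% of all probe sets showed this and 24.2% showed it in either direction.

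**Figure D2:**
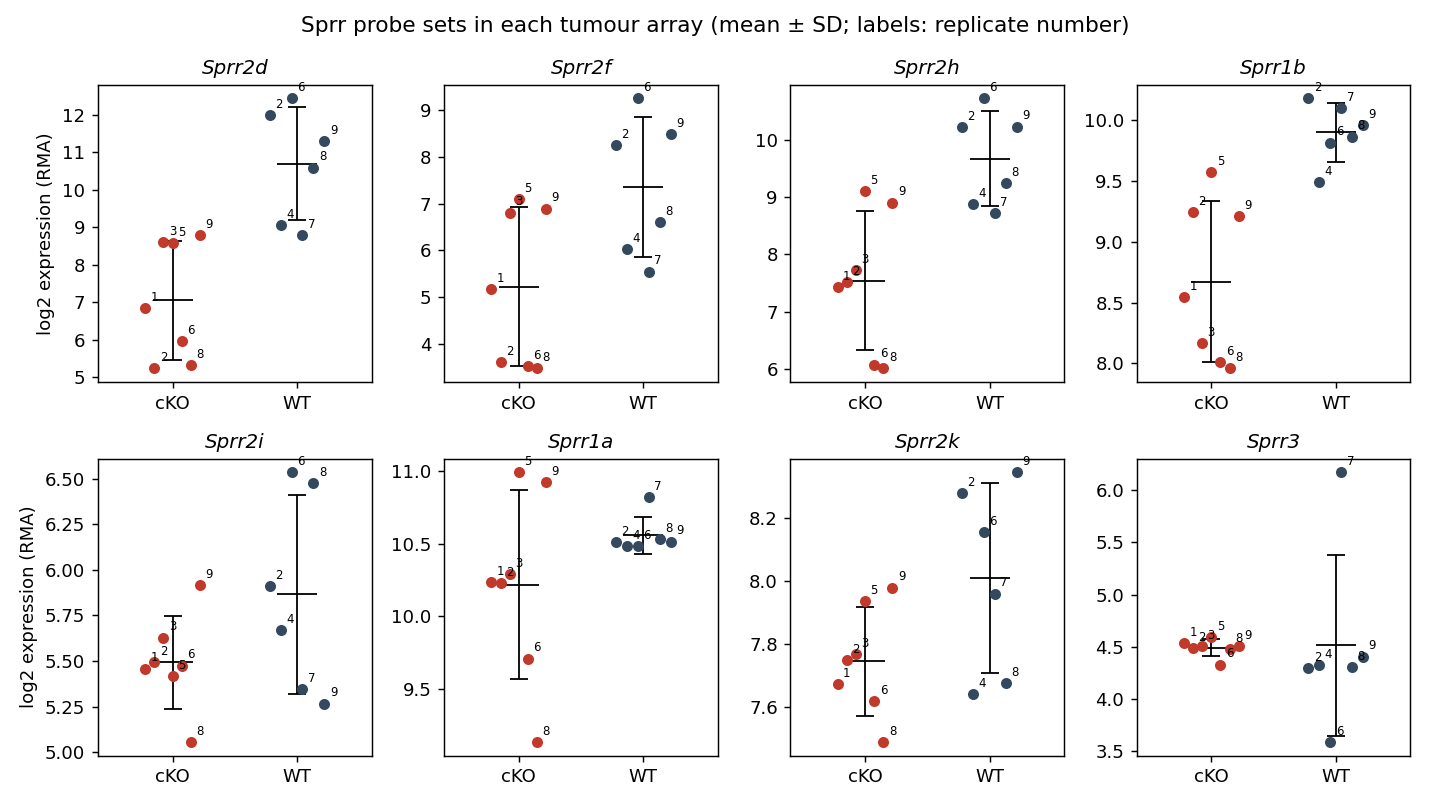
log2 expression of the 8 Sprr probe sets on each array, in cKO tumours (red, n = 7) and WT tumours (blue, n = 6), with the mean and SD in black and the replicate number beside each point. The scale differs between panels. Sprr2d does not overlap between the groups, Sprr2f, Sprr2h and Sprr1b overlap by 1 to 3 cKO arrays, and Sprr1a is narrow in WT and wide in cKO tumours.

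Some Sprr genes differed widely between tumours of 1 group. The SD of Sprr2d exceeded that of 99.98% of probe sets both among cKO and among WT arrays, and Sprr2f was alike (99.99% and 99.98%). Sprr2h exceeded 99.9% in cKO and 99.4% in WT tumours. The median SD of the 8 probe sets was 0.66 in cKO and 0.69 in WT tumours, against 0.09 and 0.12 over all probe sets. Sprr1b and Sprr1a varied mainly among cKO tumours, where their SDs exceeded 98.8% of probe sets each, while in WT tumours they exceeded 80.7% and 55.1%. Sprr3 was the reverse, with 44.8% in cKO and 99.5% in WT tumours.

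This spread has a structure that bears on every value here. Neighbours in deposit order lay on opposite sides of their group mean, in 6 pairs (cKO replicates 2 and 3, 5 and 6, 8 and 9, and WT replicates 2 and 4, 6 and 7, 8 and 9), with correlations of their deviations over all probe sets between -0.95 and -0.88. The labels mention no step that would tie them. The 2 arrays of a pair are therefore not independent, and each pair gives 1 ordering of its tumours. The pair term gives each pair its own mean. Its p-values thus set the group difference against the gaps inside pairs, and not against the spread between pairs of a group. They are no test with pairs as the units, and cKO replicate 1, which has no neighbour, adds nothing to that spread.

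Within these pairs several Sprr2 genes kept a common order. The array with more Sprr2d signal also had more Sprr2f, more Sprr2h and more Sprr2k in 6 of 6 pairs. Sprr1a, Sprr1b, Sprr2i and Sprr3 followed Sprr2d in 4 of 6 pairs each. Among cKO tumours, replicates 5 and 9 were high in Sprr2d, Sprr2f, Sprr2h, Sprr1b, Sprr1a and Sprr2k, and replicates 6 and 8 were low in all of these, while replicate 3 was high in Sprr2d and Sprr2f (8.60 and 6.81) and low in Sprr1b (8.16). Among WT tumours, replicates 2, 6 and 9 were high in Sprr2d, Sprr2f, Sprr2h and Sprr2k, and replicates 4 and 7 were low in the first 3 of them. The mean absolute gap between the arrays of a pair was 2.79 for Sprr2d and 1.74 for Sprr2h, against 0.83 for Sprr1b, 0.59 for Sprr1a and 0.39 for Sprr2k. For Sprr2f the lower array of each cKO pair was under background, so its gap has no exact size.

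Correlations of deviations from the group mean over the 13 arrays describe the same pattern and carry no p-value, since paired arrays share a centre. Against the mean of the other members, Sprr2h had r = 0.93 (rho = 0.88), Sprr1a 0.80 (rho = 0.60), Sprr2f 0.79 (rho = 0.79), Sprr2d 0.76 (rho = 0.74), Sprr2k 0.69 (rho = 0.69) and Sprr1b 0.68 (rho = 0.53). Over all 13 arrays Sprr2i (0.23) and Sprr3 (-0.25) did not follow the others. Among cKO arrays their r was 0.67 and 0.64 (n = 7), and among WT arrays -0.11 and -0.59 (n = 6). Sprr3 hardly varied among cKO arrays (SD 0.08). Sprr1a followed the other members among cKO arrays (r = 0.98, n = 7) and not among WT arrays (r = -0.19, n = 6), where it hardly varied. Without the 2 arrays farthest from the median, r was 0.90 for Sprr2h and 0.63 for Sprr1a.

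The genes outside the family whose deviations were most like the mean Sprr deviation, among 13784 genes compared, were Flrt3, Aqr, Ccdc71l, Bpifb1, Lypd3 and Ccng2, with r between 0.93 and 0.97 over 13 arrays. All 6 kept the order of Sprr2d in 6 of 6 pairs. This follows largely from how they were picked, since Sprr2d is part of the Sprr mean, and nothing further is read from it. Flrt3, which encodes a leucine-rich transmembrane protein, lay between 9.08 and 10.11 in cKO tumours, against 10.34 to 10.86 in WT tumours, and fell by 0.93 (limma adjusted p = 0.000371, 0.0133 with the pair term). Ccng2, the gene of cyclin G2, fell by 0.75 (limma adjusted p = 0.000872, 0.0182 with the pair term). Bpifb1, a secreted protein of mucosal surfaces, rose by 0.30 (limma adjusted p = 0.000412, 0.0175 with the pair term). It lay between 6.97 and 7.27 in cKO tumours, against 6.73 to 6.90 in WT tumours. The nonspecific controls differed by -0.31 to 0.08, so a fall among them reached this size and no rise did. The array's hybridisation controls differed by 0.06 to 0.49. Lypd3, a surface protein of suprabasal keratinocytes, differed by -0.28 (limma adjusted p = 0.137), and Ccdc71l by -0.31 (limma adjusted p = 0.433). Aqr, which encodes a helicase of the spliceosome, differed by 0.15 (limma adjusted p = 0.037, 0.152 with the pair term). The 6 genes picked in this way thus included ones called higher, called lower and not called between the groups. The rises of Bpifb1 and Aqr lay within the range of the hybridisation controls.

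**Figure D3:**
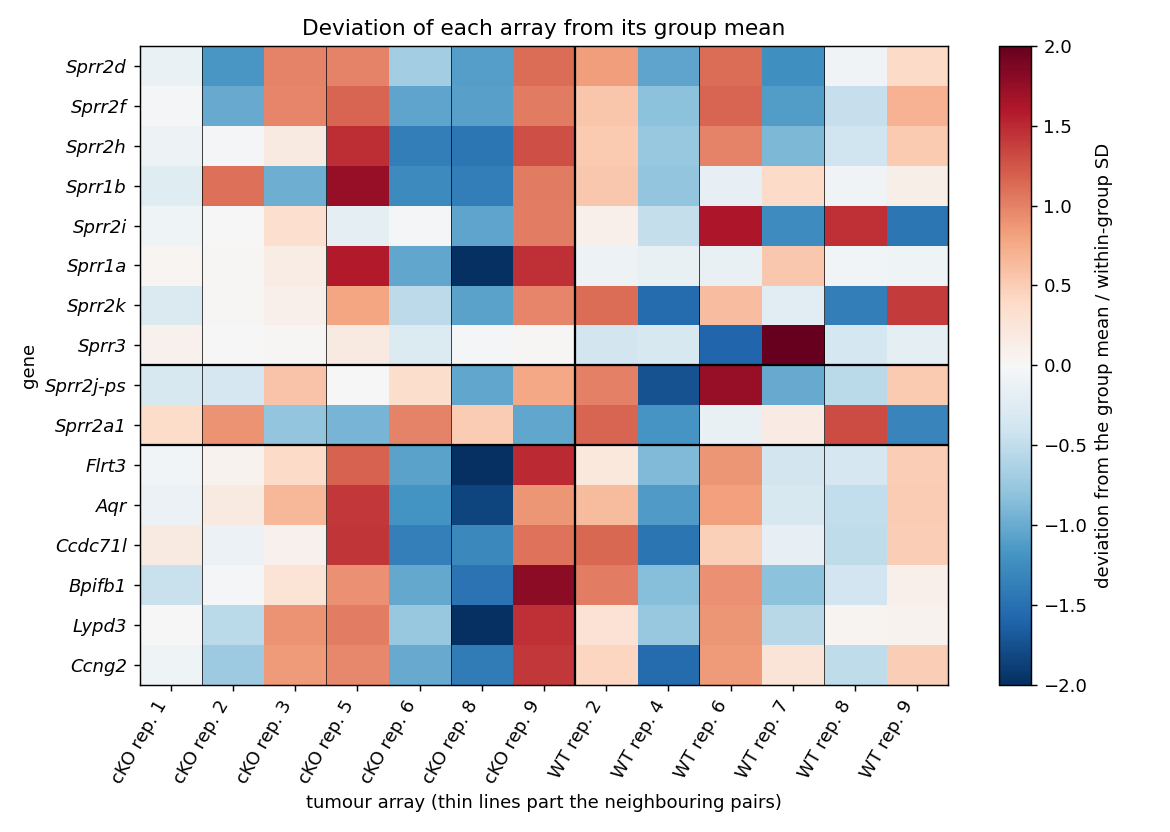
Deviation of each array from its group mean, in within-group SDs, for the 8 Sprr genes, Sprr2j-ps and Sprr2a1, and the 6 genes most like the Sprr mean. cKO arrays are on the left, and thin lines part the neighbouring pairs (cKO replicate 1 has no neighbour). Columns of cKO replicates 5 and 9 are mostly red and those of 6 and 8 mostly blue, apart from Sprr2a1, which is the reverse.

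The array also read 3 Sprr probe sets outside the list. Sprr2j-ps, a transcribed pseudogene between Sprr2i and Sprr2k, lay between 4.37 and 5.05 in cKO tumours, against 5.53 to 6.84 in WT tumours, with no overlap. Its means were 4.76 ± 0.24 (SD, n = 7) in cKO and 6.18 ± 0.50 (SD, n = 6) in WT tumours, and it fell by 1.42 (SE 0.20, limma adjusted p = 8.99e-05, 0.00623 with the pair term). Sprr2a1, the first gene of the cluster, had a small difference of the other sign. It lay between 12.37 and 12.68 in cKO tumours, against 12.05 to 12.45 in WT tumours, a difference of 0.28 (SE 0.08, limma adjusted p = 0.0134, 0.0869 with the pair term). This lay within the range of the hybridisation controls, 0.06 to 0.49. Sprr2a1 kept its call with any 1 array left out (largest limma adjusted p = 0.0313). With every array centred on the keratinocyte markers set out below, it was not called (limma adjusted p = 0.0811). A probe set annotated to several Sprr2a genes differed by 0.22 (limma adjusted p = 0.133). Sprr2a1 took the order of Sprr2d in 1 of 6 pairs and had r = -0.84 with the mean of the members among cKO arrays (n = 7) and 0.33 among WT arrays (n = 6). The annotation holds further Sprr2a genes, with 250 of 250 identical bases before the starts of Sprr2a1 and Sprr2a2. Signal of these copies may enter the Sprr2a1 probe set, which was not tested, since transcript and probe sequences were not compared.

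Positions along mouse chromosome 3 show where the differences lay. The annotation lists 17 Sprr entries there, 14 of them protein-coding, with no other measured gene between them. From Sprr2a1 (0.28) the differences ran through Sprr2d (-3.65), Sprr2f (-2.14), Sprr2h (-2.13), Sprr2i (-0.38), Sprr2j-ps (-1.42), Sprr2k (-0.26), Sprr1b (-1.23) and Sprr3 (-0.02) to Sprr1a (-0.34). Of the 10 nearest measured genes on each side, 3 were lower and 3 higher in cKO tumours of 20 in all (limma adjusted p under 0.05 over 17097 genes, each read by its brightest probe set), where 20.1% of all genes were lower and 25.7% higher, 45.8% in all. Their median difference was 0.04, against 0.02 over all genes. S100a6, a calcium-binding protein, fell by 0.36 (limma adjusted p = 0.00198, 0.0333 with the pair term). Lce1i fell by 0.19 (limma adjusted p = 0.00133, 0.0284 with the pair term), within the nonspecific controls' range of -0.31 to 0.08. Lelp1 rose by 0.24 (limma adjusted p = 0.000551, 0.0184 with the pair term), within the hybridisation controls' range of 0.06 to 0.49. Lce1b, also called lower, read 3.99 to 4.16 in cKO tumours, against 4.21 to 4.41 in WT tumours, and so was not above background (an upper quartile of 4.29 over the nonspecific controls) in cKO tumours. With dim probe sets left out, 2 of the flanking genes were lower and 2 higher. S100a8 and S100a9, subunits of calprotectin that stressed keratinocytes and neutrophils make, differed by -1.65 and -0.85 but varied widely between tumours (limma adjusted p = 0.10 and 0.263). With the pair term 3 of the 20 were lower and 1 higher, where 10.3% of all genes were lower and 14.4% higher, 24.7% in all.

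**Figure D4:**
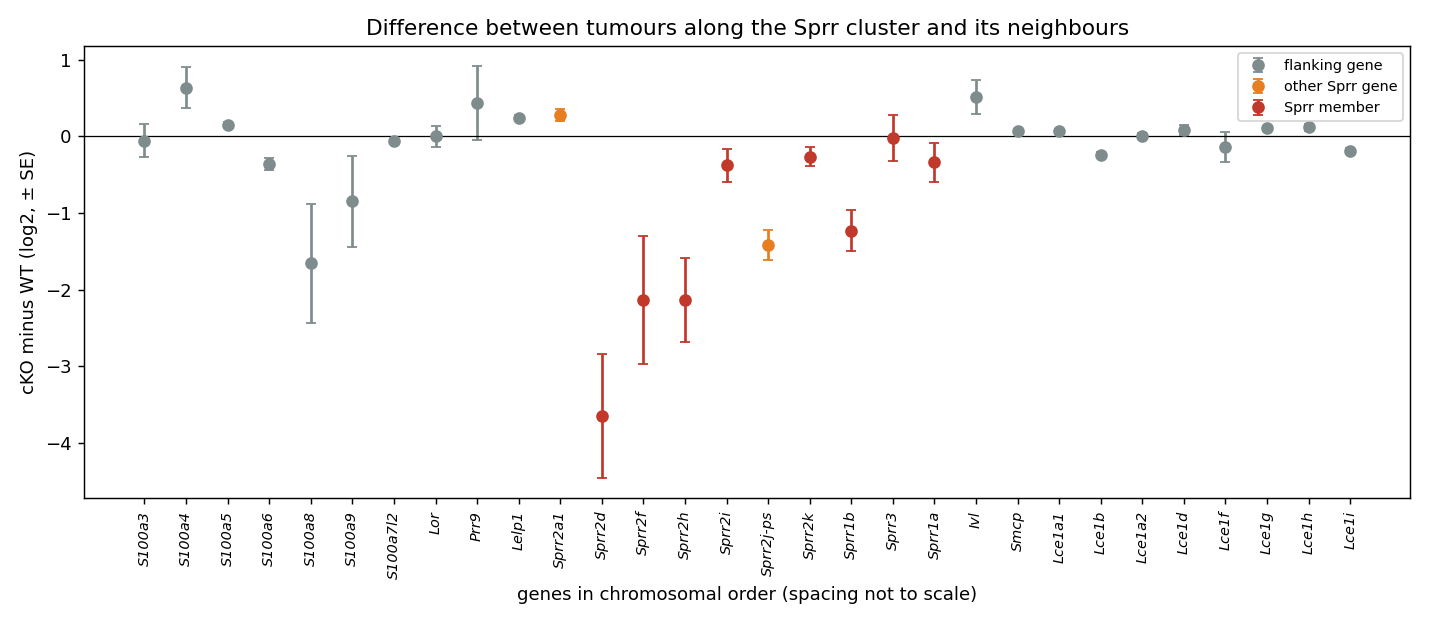
Difference between cKO and WT tumours (cKO minus WT, log2, with SE) for the Sprr genes and the 10 nearest measured genes on each side, in chromosomal order and not to scale. Differences below -1 lie at Sprr2d, Sprr2f, Sprr2h, Sprr2j-ps and Sprr1b inside the cluster, and at S100a8 outside it.

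Partners of the Sprr proteins in the envelope were called in both directions. Of 34 measured genes of other envelope precursors and crosslinking enzymes, 4 were lower and 8 higher in cKO tumours (limma, adjusted p under 0.05), with a median of 0.002, where 20.1% of all genes were lower and 25.7% higher. Flg and Lce1g, among the 8, lay under the control median on all 13 arrays, and with dim probe sets left out 3 were lower and 6 higher. Lce3c, a late envelope precursor, averaged 8.34 ± 0.15 in cKO and 8.85 ± 0.13 in WT tumours (SD, n = 7 and 6). It fell by 0.51 (limma adjusted p = 0.000167, 0.00965 with the pair term). Lce1b was called lower from values not above background, as above. Lelp1 rose by 0.24 and Lce1m by 0.17. Both rises were larger than any among the nonspecific controls, which differed by -0.31 to 0.08, and smaller than the largest fall there. Hybridisation controls differed by 0.06 to 0.49. Involucrin (Ivl) differed by 0.51 (limma adjusted p = 0.0694), Tgm1, the transglutaminase that builds the envelope at the membrane, by -0.29 (limma adjusted p = 0.449) and Tgm3 by -0.25 (limma adjusted p = 0.778). Tgm2, another transglutaminase, rose by 0.51 (limma adjusted p = 0.000945, 0.0193 with the pair term). Loricrin (Lor), the main envelope protein of normal epidermis, was dim in both groups (4.47 in cKO and 4.47 in WT tumours). With the pair term 3 of the 34 were lower and 3 higher, where 10.3% and 14.4% of all genes were.

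Of 23 measured transcription factor genes known from Sprr promoters or late keratinocyte differentiation, 5 were lower and 2 higher in cKO tumours (limma, adjusted p under 0.05), with a median of -0.11, where 20.1% of all genes were lower and 25.7% higher. The Ets-family genes Ets1 and Elf3 fell by 1.11 and 0.98 (limma adjusted p = 0.000527 and 0.000264). Ets1 averaged 7.27 ± 0.39 in cKO and 8.38 ± 0.34 in WT tumours (SD, n = 7 and 6), and Elf3 averaged 6.25 ± 0.32 in cKO and 7.24 ± 0.27 in WT tumours. Fosl2, an AP-1 subunit, fell by 0.43 (limma adjusted p = 0.00100). Pou2f3, an octamer-binding factor of suprabasal keratinocytes, rose by 0.99 (limma adjusted p = 0.000524). Ets1, Elf3, Fosl2 and Pou2f3 were also called with the pair term. Ets2 and Ehf, of the Ets family as well, differed by -0.40 and -0.10 (limma adjusted p = 0.0529 and 0.807). Nfe2l2 and Grhl3, the other genes called lower, fell by 0.60 and 0.68 (limma adjusted p = 0.00184 and 0.0121, 0.0243 and 0.0629 with the pair term). Junb, another AP-1 subunit, rose by 0.44 (limma adjusted p = 0.00321, 0.0402 with the pair term). Fos differed by -0.01, Fosl1 by -0.06 and Jun by 0.17 (limma adjusted p = 0.903, 0.621 and 0.315), and Klf4, a driver of barrier formation, by -0.13 (limma adjusted p = 0.422). Whether these genes have a part in the Sprr values was not tested.

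Of 12 measured genes of activated keratinocytes, 2 were lower in cKO tumours and none higher (limma, adjusted p under 0.05, with 4 lower and none higher at an unadjusted p under 0.05), with a median of -0.26, where 20.1% of all genes were lower and 25.7% higher. The keratin gene Krt6a fell by 0.37 (limma adjusted p = 0.000317, 0.0143 with the pair term), and Krt6b differed by -0.68 (limma adjusted p = 0.0222, 0.111 with the pair term). Krt16 differed by -0.43 (limma adjusted p = 0.0892).

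Markers of other cell types moved with the groups and are set beside the Sprr values. None of the 13 measured keratinocyte markers, among them Krt5 and Krt14, lay at background on every array, and their mean level per array ran from 10.82 to 11.23 in cKO and from 10.96 to 11.23 in WT tumours, with 1 marker higher and 2 lower. Of 8 fibroblast markers 6 were higher in cKO tumours (Pdgfra and Col1a2 were at background in both groups), and their mean ran from 5.85 to 6.44 in cKO and from 4.39 to 5.28 in WT tumours. Of 8 leukocyte markers 4 were higher (5.49 to 6.26 in cKO and 4.77 to 5.01 in WT), and 5 of 6 endothelial markers (5.79 to 6.33 in cKO and 4.46 to 5.63 in WT). Among these, Ptprc, the pan-leukocyte marker, was at background in both groups, with means of 3.46 in cKO and 3.47 in WT tumours. Of 5 sebaceous gland markers, 1 was higher, Elovl3, which was at background on every array, and the list's mean ran from 7.67 to 8.50 in cKO and from 8.08 to 8.54 in WT tumours. With every array centred on its keratinocyte markers, the differences were -3.59 for Sprr2d, -2.08 for Sprr2f, -2.07 for Sprr2h and -1.17 for Sprr1b. Within the neighbouring pairs, the keratinocyte mean took the order of Sprr2d in 4 of 6 pairs, the sebaceous mean in 4, the fibroblast mean in 3 and the leukocyte and endothelial means in 1 each. Their part in the Sprr values was not tested. In whole tumours, fewer cells of a type and less RNA per cell cannot be told apart.

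**Figure D5:**
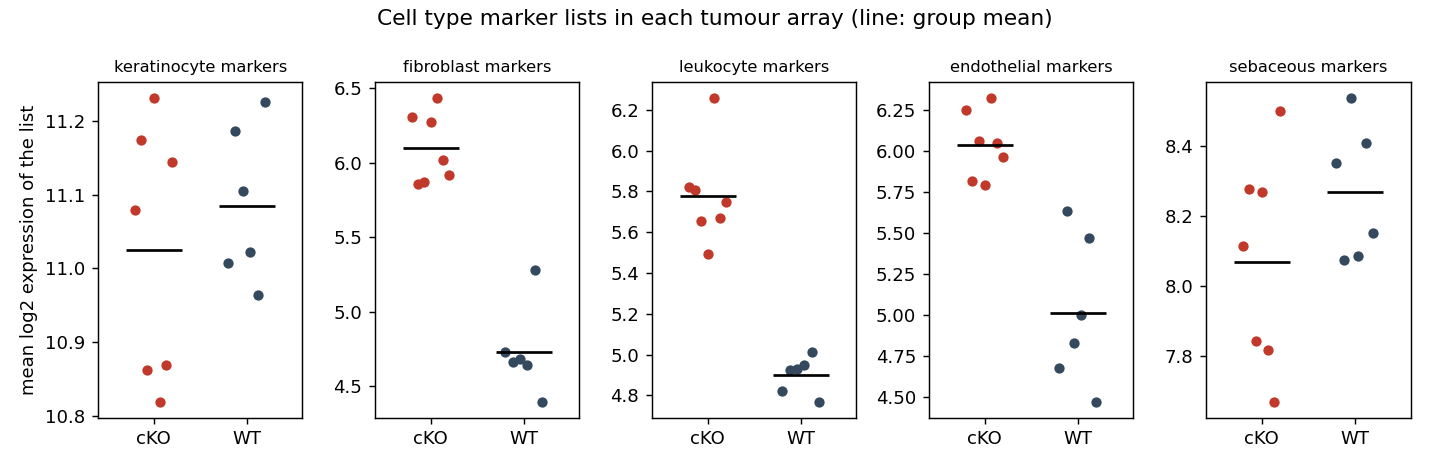
Mean log2 expression of 5 lists of cell type markers on each array in cKO tumours (red, n = 7) and WT tumours (blue, n = 6), with lines at the group means and a scale per panel. The fibroblast, leukocyte and endothelial lists do not overlap between the groups, and the keratinocyte and sebaceous lists do.

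Over the whole series 21565 of 45037 probe sets (47.9%) passed an adjusted p under 0.05 (limma), 10556 lower and 11009 higher in cKO tumours, and 12169 (27%) with the pair term. Array medians lay between 5.12 and 5.14 in cKO and between 5.09 and 5.14 in WT tumours. The SD over all values of an array lay between 1.83 and 1.88 in cKO and between 1.91 and 1.94 in WT tumours, so the arrays did not share the same spread. Ehmt2 was lower on 1 of its 2 probe sets (6.01 ± 0.10 in cKO and 8.33 ± 0.19 in WT tumours, SD, n = 7 and 6, two-sided exact permutation p = 0.000583 over 1716 splits). Its other probe set differed by 0.13 (exact permutation p = 0.131, n = 7 and 6). Both permutation tests treat all arrays as independent, which the 2 arrays of a neighbouring pair are not, so these p-values may be too small. The sources used here do not place either probe set against the deleted exons.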

How the data were processed

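The authors deposited log2 expression per probe set for 13 arrays, made with RMA per the submitters' processing notes, and the sources used here name no later adjustment. Per the labels' protocols, 25 ng of TRIzol-extracted RNA was amplified with 17 cycles. Each array's group and replicate number were read from its title. Probe sets were named from the platform annotation (28898 with 1 symbol), and all 8 Sprr gene numbers matched the RefSeq annotation (GRCm38.p6). The group difference, cKO minus WT, was estimated for each probe set in limma 3.58.1 under R 4.3.3 (lmFit, then eBayes, without covariates, two-sided, Benjamini-Hochberg over all probe sets, or over 17097 genes for the lists), with no filter. The members and gene lists were chosen with earlier results of these data known. Named beyond the members were Ehmt2, up to 4 called genes of smallest p per list and the 6 genes most like the mean Sprr deviation, and other list members named with their values were chosen after those were seen. The fit was tested on simulated data. The numbers 2, 6, 8 and 9, used in both groups, did not pair the arrays (correlations of deviations between -0.28 and 0.05). Alternatives were other scalings, priors, weights and filters, the replicate block, the pair term and leaving out each array. No arrays were identical, their number limits the precision, and arrays carry no read depth. Windows were aligned with Biopython 1.88 and figures drawn with matplotlib 3.10.9.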

Additional observations from a re-analysis of the deposited data

Results flagged for a closer look

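In 66 groups of 6 or 7 arrays that were looked at for an array standing far from the rest, 3 held one, where chance gives about 1 in 20. Sprr3 read 6.17 on WT replicate 7, with the next WT array at 4.41. Sprr1a read 10.82 on the same array, with the next WT array at 10.53. Fosl2 read 9.87 on cKO replicate 8, with the next cKO array at 10.27. No cause of these values was tested.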

How the results depend on the processing

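The alternatives were set with earlier results of these data known. The median Sprr difference kept its direction in every alternative run. With the neighbouring-pair term 2 Sprr probe sets were called, in place of 4, and Sprr2f was not called after quantile normalization. The sign of Sprr3 turned in 5 alternatives (between 0.0032 and 0.31), and the other 7 Sprr genes kept theirs. The count over all probe sets was 9895 with centring on keratinocyte markers, 8955 with the replicate block and 12169 with the pair term. Envelope partner genes called were 6 with keratinocyte centring, 3 with the block, 6 with the pair term and 7 at an adjusted p under 0.01. Flanking genes called were 1 with keratinocyte centring, 0 with the block (limma, 5 at an unadjusted p under 0.05) and 11 with array weights. Activated keratinocyte genes called were 1 with the pair term, 7 with array weights and 1 at an adjusted p under 0.01. Under the replicate block, which rests on the 4 shared numbers, Sprr2d differed by -5.25 and Sprr2f by -3.78, and 5 Sprr probe sets were called. With array weights 6 were called, Sprr2i and Sprr2k in addition. With dim probe sets left out, flanking genes called were 4. The first Ehmt2 probe set differed by 0.24 after quantile normalization (exact permutation p = 0.00233). The cause of these changes was not tested. Without 1 array at a time, counts ran from 19362 to 20914 over all probe sets, 3 to 5 for Sprr, 12 to 14 for envelope partners, 7 to 9 for regulators, 2 to 3 for activated keratinocyte genes and 6 to 9 for flanking genes. The median Sprr difference ran from -0.93 to -0.71 and the Ehmt2 differences from 0.0745 to 0.173 (exact permutation p = 0.0189 without WT replicate 9) and from -2.39 to -2.27. Aqr was not called with the pair term and lost its call in several other alternatives. Krt6b lost its call without WT replicate 9 (limma adjusted p = 0.0506).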

Other observations

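Among the envelope partners, 2 genes had large differences opposite in sign to those of Sprr2d, and they are named after their values were seen. Cdsn, which encodes corneodesmosin, an adhesion protein of cornified cells, averaged 7.08 ± 0.82 in cKO and 5.56 ± 0.79 in WT tumours (SD, n = 7 and 6), a difference of 1.52 (limma adjusted p = 0.0101, 0.0724 with the pair term). Tgm5, an epidermal transglutaminase, averaged 7.20 ± 0.47 in cKO and 5.78 ± 1.20 in WT tumours (SD, n = 7 and 6), a difference of 1.42 (limma adjusted p = 0.0219, 0.104 with the pair term).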
